A study of Mus musculus with 18 samples.

Results

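Dendritic cells are the sentinels that carry microbial antigen to T cells, and bacterial lipopolysaccharide (LPS) is a strong trigger of that switch. Described here is the end of a day of LPS: the 3 arrays of mouse bone marrow-derived dendritic cells after 24 h of LPS, set against the 3 arrays of unstimulated cells, which were harvested 24 h after plating. These 6 arrays were taken from the 18 of the series by their labels alone, which also hold 2, 4, 6 and 12 h of LPS. Each of the 6 is the only array of its condition and time. The conditions are wild type C57BL/6, wild type C57BL/6 with EGTA, and CD14-deficient cells (Cd14-/- C57BL/6), all from mice of 6 to 8 weeks. EGTA, used at 2 mM, chelates extracellular calcium, and CD14 is the surface protein that hands LPS to its receptor TLR4 and MD-2. LPS was given at 1 µg/ml in the wild type conditions, per the labels, which leave its dose for the CD14-deficient cells unstated. Marrow was grown for 7 to 10 days with 10% supernatant from B16 melanoma cells that had been made to secrete GM-CSF, and cultures were used at above 90% CD11c-positive cells. Of the unstimulated array of the EGTA condition, the title names EGTA while its protocol does not. The LPS protocols do not say how long after plating LPS was added, so the match in hours holds if it was added at plating. No label says that arrays came from separate cultures or animals, so p-values here describe the scatter among the arrays of the series alone, and that scatter may be technical. It is taken from all 18 arrays and also holds any difference between conditions in the response to LPS.

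TLR4 signals through MyD88, which leads to NF-kB and the inflammatory cytokines, and through TRIF, which leads to interferon-β and then to the interferon-stimulated genes. In dendritic cells this programme, called maturation, is known to raise the costimulatory ligands of T cells, to redirect the cell to the lymph node through the chemokine receptor CCR7, to wind down antigen uptake and to stop division. Feedback inhibitors such as A20, the SOCS proteins and interleukin-10 limit it.

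Levels are log2 of the quantile-normalised array intensity plus 16, and a difference of 1 is a doubling of that sum, which understates the change of dim genes. Levels of different genes are not compared, because each probe set has its own brightness. Where 3 values stand together they are wild type, EGTA and CD14-deficient in that order. A change is the mean of the 3 within-condition differences ± its standard error, from a limma fit with condition as a block, and a gene was called higher or lower at a Benjamini-Hochberg adjusted p under 0.05 over all 7056 genes tested. Values are from bulk RNA, in which fewer cells of a type and less RNA per cell cannot be told apart.

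Cd14 followed the labels. Its level was 12.66 and 12.53 in the unstimulated wild type and EGTA cells and 5.41 in the CD14-deficient cells, and 13.28, 12.97 and 5.39 after LPS. The change over the 3 conditions was 0.35 ± 0.32 (adjusted p = 0.379), and without the CD14-deficient arrays it was 0.53 (adjusted p = 9.16e-05). The dendritic cell marker Itgax, which encodes CD11c, lay between 11.22 and 12.40 on all 6 arrays, while Flt3 and Xcr1 did not reach the filter for testing. Of 15 measured dendritic cell markers 14 were above the median gene on at least 1 of the 6 arrays. So were 14 of 16 granulocyte, 12 of 16 macrophage and 6 of 7 monocyte markers, so this measure does not set dendritic cells apart from them. Among the tested dendritic cell markers 3 of 13 were higher and 6 lower after LPS (median -0.12), with Itgae (-3.41 ± 0.25) the lowest. Of the markers of B cells, T and NK cells, erythroid cells, stromal cells and melanoma cells, 2 of 10, 1 of 13, 1 of 10, 2 of 12 and 1 of 9 measured passed the filter for testing. The markers Cd3e, Pax5, Hba-a1, Col1a1 and Pmel, 1 from each list, lay at or below 5.94 on every one of the 6 arrays. Those that passed included 3 that rose with LPS: Blnk of the B cell list (1.62 ± 0.13), Car2 of the erythroid list (1.58 ± 0.24) and Dcn of the stromal list (2.19 ± 0.41, and 1.30 with 64 added before log2). Cd22, the other tested gene of the B cell list, was lower (-0.41). Il7r, the only tested gene of the T and NK list, did not pass (0.24). It was called higher with median centring (0.46, adjusted p = 0.00346) but not with no further scaling (0.04, 0.834). The summed level of the erythroid list was 1040 to 2371 without LPS and 3501 to 6291 with it, that of the B cell list 1407 to 1546 and 2735 to 3929, and that of the stromal list 268 to 735 and 551 to 901. That of the T and NK list was 4286 to 5384 and 4180 to 7159, and that of the melanoma list 798 to 1178 and 811 to 1111. Their part in the results was not tested. Among the arrays, the unstimulated EGTA array stood apart at the dim end, with 3311 probe sets under an intensity of 16 against 4635 to 5570 on the other 17, and with the lowest median correlation with the others (0.933). RNA integrity was 8.7 for the EGTA array at 24 h of LPS and 9.5 to 9.9 for the other 5.

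After 24 h of LPS, 1866 of 7056 tested genes were higher (26.4%) and 1816 were lower (25.7%) than in unstimulated cells. At least 2-fold changes numbered 479 upward (6.79%) and 475 downward (6.73%). The 3 LPS arrays lay all above the 3 unstimulated arrays for 1882 genes (26.7%) and all below for 1766 (25.0%). Of the 479 genes at least 2-fold higher, 477 had the same sign in all 3 conditions and 320 were at least 2-fold higher in each of them, and of the 475 lower, 473 and 298. The groups did not overlap for 97.1% of the 479 and 96.8% of the 475. Over all calls this held for 88.4% of the higher and 86.8% of the lower genes. Calls and overlap come from the same arrays, so a lack of overlap in called genes below is read against these shares. The even split of calls rests on the scaling of the arrays: 50.7% of calls were upward as reported, 64.8% with the arrays centred on their medians and 20.7% with no further scaling. The median change of all tested genes was 0.01, 0.13 and -0.28 under these 3 scalings, so small shifts below are read against that range. Counts within a gene list are likewise to be read against the shares of 26.4% higher and 25.7% lower among all tested genes. Without the unstimulated EGTA array, 467 genes were at least 2-fold higher and 497 lower, of which 434 and 445 were among the genes called with it.

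**Figure D1:**
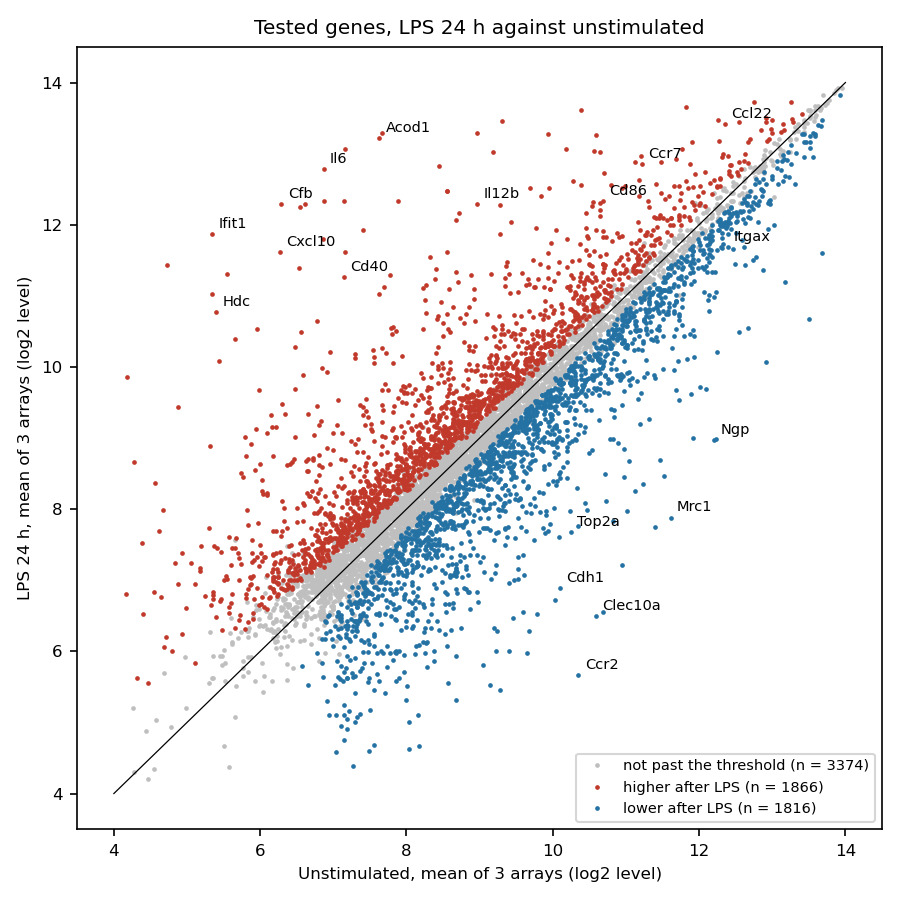
Mean log2 level of each tested gene in the 3 unstimulated arrays (horizontal) and the 3 arrays after 24 h of LPS (vertical); red and blue points passed the threshold and the line marks equal levels. The 1866 higher and 1816 lower genes lie on either side of the line, and the genes farthest above it, such as Ifit1, Cfb and Il6, were dim before LPS.

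The largest rises were as follows. U90926, a transcript of little known function, went from 4.38, 5.49 and 4.28 to 12.43, 10.40 and 11.50, a change of 6.72 ± 0.39 (adjusted p = 2.16e-09). Cfb, complement factor B of the alternative pathway, went from 6.23, 6.07 and 6.56 to 12.39, 12.28 and 12.20, a change of 6.00 ± 0.16. Saa3, an acute-phase serum amyloid, rose by 5.92 ± 0.15. For each of these the lowest LPS array lay over 4 log2 units above the highest unstimulated array. Ly6i (5.76 ± 0.20), Ms4a4c (5.69 ± 0.27) and the pantetheinase gene Vnn3 (5.68 ± 0.23) were of the same order. Tm4sf1, a tetraspanin-like membrane protein, changed by 5.68 ± 0.78. After LPS it reached 7.13 in the EGTA cells against 11.44 in wild type and 11.03 in CD14-deficient cells. The alarmin Il1a showed the tightest of these rises, from 7.70, 7.71 and 7.59 to 13.37, 13.35 and 13.15 (5.62 ± 0.07, adjusted p = 1.16e-17).

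The 12 largest falls were of genes with varied roles. Ccr2, the receptor that draws monocytes and their offspring to inflamed tissue, went from 10.13, 10.02 and 10.92 to 4.94, 5.53 and 6.54 (-4.68 ± 0.22, adjusted p = 2.06e-10); its other probe sets gave -4.01 and -2.33. The galactose-type lectins Clec10a (-4.10 ± 0.21) and Mgl2 (-3.65 ± 0.15) and the mannose receptor Mrc1 (-3.72 ± 0.13) fell together. Fosb, an AP-1 subunit, fell by 3.81 ± 0.31 and Klf4, a regulator of monocyte differentiation, fell by 3.72 ± 0.29. Bex1 (-4.14 ± 0.13), the interferon-induced transmembrane family member Ifitm6 (-3.68 ± 0.14), the prostacyclin synthase Ptgis (-3.50 ± 0.24), the integrin Itgae, or CD103 (-3.41 ± 0.25), and the neutrophil granule protein Ltf (-3.39 ± 0.18) completed the list with the tight junction gene Cldn1. Cldn1 fell by 3.62 ± 0.29 on its brightest probe set and by 2.57 on another, whereas its 2 remaining probe sets, both dim, gave 0.17 and -0.48. In all 12 the LPS arrays lay below every unstimulated array, as they did for 96.8% of all genes called at least 2-fold lower. Averaging all probe sets of a gene, dim ones included, shrank several of the changes given here: Tm4sf1 to 3.05, Cldn1 to -1.63, Tap1 to 0.74, Alcam to 0.41, Tgfbr2 to -0.95 and Top2a to -1.36, all still past the threshold.

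Costimulatory ligands, the second signal that a T cell needs, were largely raised: 11 of 15 tested members were higher and 2 lower, with a median change of 1.65. Cd40, through which T cells license the dendritic cell, went from 7.36, 7.15 and 6.91 to 11.43, 11.42 and 10.93 (4.12 ± 0.08, adjusted p = 3.67e-15). Cd86, the ligand of CD28 and CTLA-4, started high at 10.61, 10.49 and 10.93 and ended at 12.32, 12.32 and 12.35 (1.65 ± 0.12). The second such ligand, Cd80, rose by 1.15 ± 0.11, and the maturation marker Cd83 by 0.70 ± 0.12. Each of these genes separated the groups without overlap. Cd70, the ligand of CD27, rose by 2.77 ± 0.21 from near the dim end, and the LFA-1 ligand Icam1 by 1.87 ± 0.11. The 2 lower members were Cd24a (-1.04 ± 0.17) and the hyaluronan receptor Cd44 (-0.79 ± 0.11).

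Genes that restrain T cells were higher as well: 14 of 19 inhibitory and immunoregulatory genes were higher and 3 lower (median 1.22). Cd274, which encodes PD-L1, went from 10.74, 10.86 and 10.05 to 12.61, 12.60 and 11.75 (1.77 ± 0.08). Cd200, the ligand of an inhibitory myeloid receptor, rose by 2.09 ± 0.11, Ebi3, a subunit of interleukin-27 and interleukin-35, by 1.90 ± 0.10, and the interleukin-1 receptor antagonist Il1rn by 1.26 ± 0.06. Pdcd1lg2, which encodes PD-L2, changed by 0.40 ± 0.11 (adjusted p = 0.006), a call lost without the EGTA arrays (adjusted p = 0.0578), without the CD14-deficient arrays (0.0647) and with no further scaling (0.14, 0.502). Il10 stood at 5.28, 4.05 and 5.09 without LPS and 5.80, 7.00 and 5.22 with it. Its change of 1.20 ± 0.40 (adjusted p = 0.019) fell to 0.33 without the EGTA arrays (0.361), to 0.70 without the unstimulated EGTA array (0.131) and to 0.66 without the EGTA array at 24 h (0.142), and its call was also lost with 64 added before log2 (0.59, 0.059) and with no condition block (0.0689). Lower were the arginine-degrading enzyme Arg1, from 12.79, 12.62 and 11.29 to 10.16, 8.53 and 8.26 (-3.25 ± 0.24), the inhibitory receptor Cd300a (-1.75 ± 0.18) and Havcr2, or TIM-3 (-0.90 ± 0.29, adjusted p = 0.018). The Havcr2 change was -1.48 without the EGTA arrays, and its call was lost without the wild type arrays (-0.63, adjusted p = 0.229) or the CD14-deficient arrays (-0.59, 0.137), and also without the unstimulated wild type array (0.0593), the wild type array at 24 h (0.113) or the unstimulated CD14-deficient array (0.129). The Havcr2 call was lost too with the 6 arrays fitted alone (0.0793) and with no condition block (0.108).

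**Figure D2:**
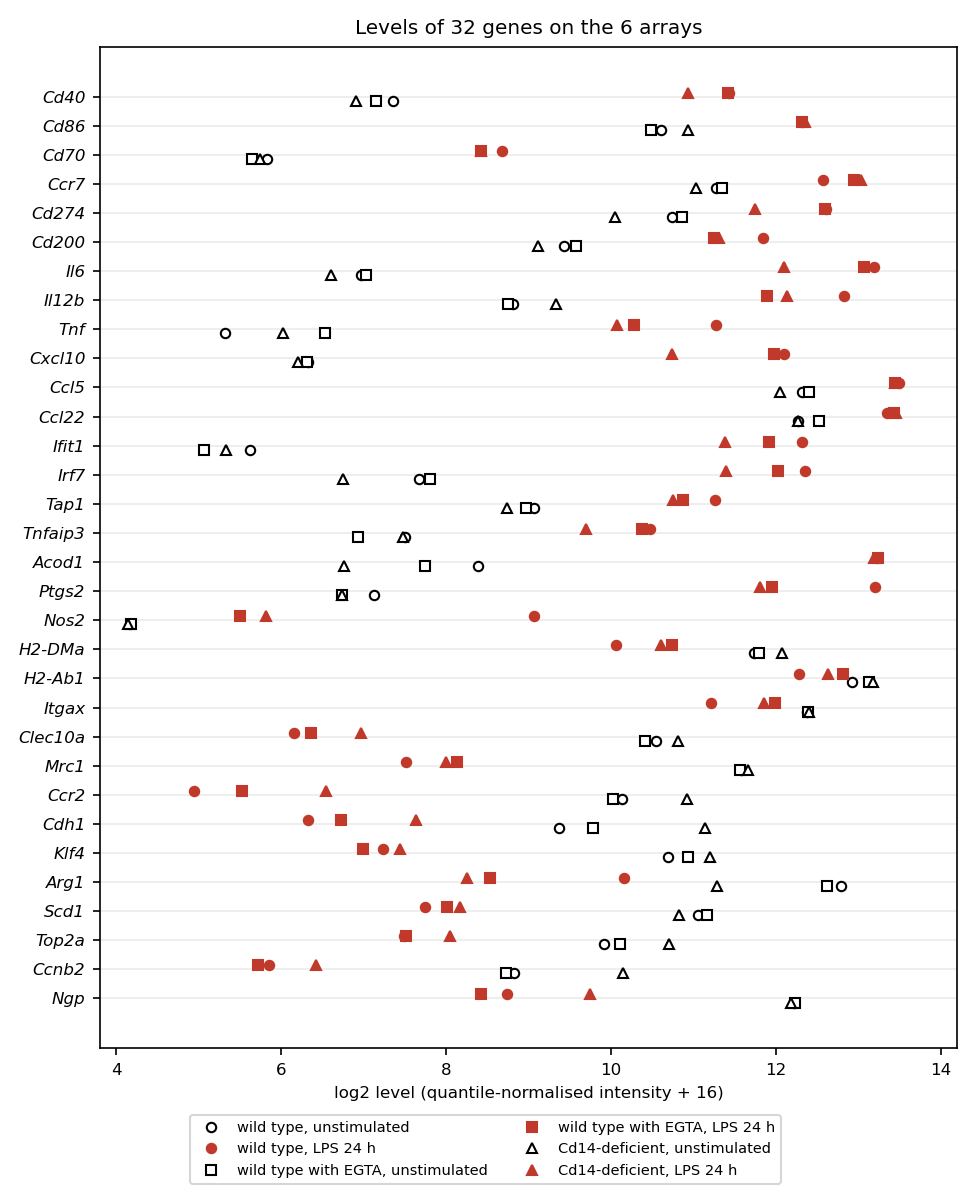
Log2 level of 32 genes (vertical) on each of the 6 arrays; open symbols are unstimulated and filled red symbols are 24 h of LPS, with the shape giving the condition. Cd40, Il6, Cxcl10 and Ifit1 jump from the dim to the bright end, Ccr7, Ccl5 and Ccl22 start bright and rise further, and Nos2 is brightest in wild type cells.

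Of 27 tested cytokines, 18 were higher and 3 lower (median 1.49). Il6 went from 6.97, 7.03 and 6.61 to 13.19, 13.07 and 12.10 (5.91 ± 0.16, adjusted p = 4.58e-13). Il12b, the p40 chain shared by interleukin-12 and interleukin-23, went from 8.81, 8.75 and 9.33 to 12.83, 11.89 and 12.14 (3.32 ± 0.17), and Il1b rose by 3.24 ± 0.11 to between 13.58 and 13.65. Tnf went from 5.32, 6.53 and 6.02 to 11.28, 10.28 and 10.07 (4.59 ± 0.34). In these 4 genes every LPS array lay above every unstimulated array. The lower members were the lymphotoxin chain Ltb (-1.40 ± 0.18), Il18 (-0.89 ± 0.24, and -0.59 without the unstimulated CD14-deficient array) and the angiogenic factor Vegfa, which stood at 9.88, 9.61 and 9.29 without LPS and 9.77, 8.49 and 8.18 with it (-0.78 ± 0.24, adjusted p = 0.013). The Vegfa call was lost without the EGTA arrays (-0.61, adjusted p = 0.173) or the CD14-deficient arrays (-0.62, 0.0607), without either EGTA array alone (0.054 without the unstimulated array and 0.0567 without the 24 h array), and without the CD14-deficient array at 24 h (0.0786), and with no condition block (0.111).

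Of 20 tested chemokines, 13 were higher and 1 lower (median 1.40). Cxcl10, the CXCR3 ligand that draws effector T cells, went from 6.32, 6.31 and 6.20 to 12.10, 11.98 and 10.74 (5.33 ± 0.17). Cxcl2, a neutrophil attractant, rose by 3.85 ± 0.15 and Cxcl16 by 2.03 ± 0.08. Ccl22 and Ccl17, ligands of CCR4 that mature dendritic cells secrete, were already bright: Ccl22 went from 12.27, 12.52 and 12.27 to 13.35, 13.44 and 13.46 (1.06 ± 0.07), and Ccl17 rose by 0.48 ± 0.06. Ccl5 likewise went from 12.32, 12.41 and 12.05 to 13.50, 13.45 and 13.45 (1.21 ± 0.07). The lower member was Ccl6 (-0.28 ± 0.06), whose sign turned with median centring (0.03).

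Receptors for these attractants moved in opposite directions, 5 of 12 higher and 6 lower. Ccr7, the lymph node homing receptor, went from 11.27, 11.35 and 11.03 to 12.57, 12.95 and 13.03 (1.63 ± 0.09, adjusted p = 1.41e-09), while Ccr2 fell as given above. The formyl peptide receptor Fpr2 went from 7.94, 8.17 and 9.59 to 12.31, 12.68 and 12.45 (3.92 ± 0.22), and the chemerin-binding receptor Ccrl2 rose by 1.35 ± 0.19. Among 30 tested cytokine and growth factor receptors, 12 were higher and 5 lower (median 0.22, and -0.07 with no further scaling). Il15ra, which presents interleukin-15 to T and NK cells, rose by 3.19 ± 0.35, and Il2ra, or CD25, by 1.74 ± 0.16. The decoy receptor Il1r2 fell by 2.92 ± 0.21, Tgfbr2 by 1.63 ± 0.12 and Ifngr1 by 1.58 ± 0.11. Csf1r lay between 12.79 and 13.29 on all 6 arrays, with a change of -0.16 ± 0.08 (adjusted p = 0.123). Its 2 other probe sets gave -0.42 and -0.35, and it was called lower with the mean of its probe sets (-0.31, adjusted p = 0.0231) and with no further scaling (-0.38, 0.0147), whereas median centring gave 0.05 (0.726). Csf2ra, a chain of the GM-CSF receptor, changed by -0.31 ± 0.08, a call lost without the wild type arrays (adjusted p = 0.0588) and with median centring (-0.08, 0.591).

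Interferon-stimulated genes had the largest share of higher members among the 36 functional lists. In the limma fit 40 of 41 were higher and 0 lower, also 0 at an unadjusted p under 0.05, with a median change of 2.85. At least 2-fold higher were 37 of the 40. Ifit1, which binds foreign RNA, went from 5.62, 5.06 and 5.33 to 12.32, 11.92 and 11.38 (6.54 ± 0.35, adjusted p = 9.90e-10), and its family member Ifit3 rose by 5.70 ± 0.37. Irf7, the transcription factor that amplifies the interferon response, went from 7.67, 7.81 and 6.75 to 12.35, 12.03 and 11.40 (4.52 ± 0.23). Oasl1 rose by 4.85 ± 0.26, the RNA sensor Ifih1 by 2.85 ± 0.13, the tetherin gene Bst2 by 2.82 ± 0.09 and Mx1 by 1.98 ± 0.20. In each of these 7 genes the CD14-deficient array was the lowest of the 3 LPS arrays. The unstimulated CD14-deficient array was also lowest for Irf7, Oasl1, Ifih1 and Bst2. How often this order held over the whole list or over all tested genes is not given here. A difference between conditions was not tested, so the order describes these named genes on these arrays only. Of 8 tested interferon regulatory factors 4 were higher in the limma fit and 0 lower, also 0 at an unadjusted p under 0.05. Irf8, a lineage factor of dendritic cells, went from 10.89, 11.05 and 10.88 to 12.44, 12.60 and 12.52 (1.58 ± 0.08), and Irf9, the DNA-binding part of ISGF3, rose by 1.58 ± 0.14. Irf4 (-0.06 ± 0.13) and Irf5 (0.15 ± 0.12) did not pass the test.

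The promoters of 2 of these interferon-responsive genes are shown with the letters GAAANNGAAA, a loose form of the interferon-stimulated response element, in capitals, because both held it and rose over 5 log2 units. Sequences are from RefSeq on build GRCm38.p6, 250 bases before to 50 after the gene start, read 5′ to 3′ on the gene's strand. Ifit1 is at chr19:34640639-34640938 on the plus strand, with matches that begin 104 and 85 bases before the start. Cxcl10 is at chr5:92348840-92349139 on the minus strand, with 1 match 213 bases before the start.
Ifit1: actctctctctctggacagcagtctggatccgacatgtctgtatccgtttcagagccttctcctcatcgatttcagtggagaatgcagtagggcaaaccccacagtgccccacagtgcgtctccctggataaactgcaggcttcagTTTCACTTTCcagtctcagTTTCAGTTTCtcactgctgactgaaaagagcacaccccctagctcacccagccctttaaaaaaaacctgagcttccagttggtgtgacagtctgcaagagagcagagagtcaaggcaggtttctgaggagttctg
Cxcl10: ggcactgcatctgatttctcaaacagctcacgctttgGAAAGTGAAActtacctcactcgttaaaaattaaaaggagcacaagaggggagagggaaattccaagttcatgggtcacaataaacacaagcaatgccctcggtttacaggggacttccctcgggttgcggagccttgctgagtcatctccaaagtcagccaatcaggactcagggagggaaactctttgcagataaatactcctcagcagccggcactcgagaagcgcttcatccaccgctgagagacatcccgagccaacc
Searched on both strands, these letters were in 39.5% of the 38 promoters of 29 interferon-stimulated genes in the promoter table. They were in 10.9% of promoters of genes at least 2-fold higher, 3.31% of those at least 2-fold lower, 3.41% of tested genes and 3.44% of all promoters in the table. A match is a description of the letters and not a shown binding site.

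NF-kB subunits, inhibitors and regulators were also mostly higher, 22 of 24 against 0 lower in the limma fit, and 0 at an unadjusted p under 0.05 (median 1.29). Relb and Nfkb2, the pair of the alternative pathway, rose by 1.39 ± 0.14 and 1.58 ± 0.16. Inhibitors of the pathway rose too: Tnfaip3, which encodes A20, went from 7.50, 6.93 and 7.48 to 10.48, 10.38 and 9.70 (2.88 ± 0.17), the signalling adaptor Traf1 rose by 2.74 ± 0.11, and the inhibitors Nfkbib and Nfkbie by 1.89 ± 0.09 and 1.54 ± 0.09. Nfkbia, the classical inhibitor IκBα, went from 12.21, 12.30 and 12.29 to 13.22, 13.15 and 13.17 (0.92 ± 0.06). Every one of these genes separated the groups without overlap.

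The promoters of Il6 and Nfkbia, textbook NF-kB targets that rose here, are shown with the kB-like letters GGGNNNTTCC in capitals. Il6 is at chr5:30012864-30013163 on the plus strand, with 1 match 44 bases before the start. Nfkbia is at chr12:55492598-55492897 on the minus strand, with 1 match 29 bases before the start.
Il6: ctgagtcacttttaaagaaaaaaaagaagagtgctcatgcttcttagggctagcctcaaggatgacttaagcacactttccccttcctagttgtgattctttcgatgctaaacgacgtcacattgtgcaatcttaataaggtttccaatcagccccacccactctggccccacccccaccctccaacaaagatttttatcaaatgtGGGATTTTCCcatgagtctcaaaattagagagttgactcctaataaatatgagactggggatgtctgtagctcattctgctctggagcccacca
Nfkbia: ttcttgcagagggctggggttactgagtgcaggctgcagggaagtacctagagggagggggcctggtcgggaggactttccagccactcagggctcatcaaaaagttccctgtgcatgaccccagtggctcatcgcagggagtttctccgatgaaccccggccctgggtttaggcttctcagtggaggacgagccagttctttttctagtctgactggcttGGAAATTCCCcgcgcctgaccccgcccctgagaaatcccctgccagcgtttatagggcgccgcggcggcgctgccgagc
These letters, on both strands, were in 45.2% of 31 promoters of 21 genes of the NF-kB list and in 42.9% of 14 chemokine promoters, against 13.8% of 29 cytokine promoters. The share was 9.87% for genes at least 2-fold higher, 3.70% for those at least 2-fold lower, 6.23% for tested genes and 5.56% for all promoters of the table. Some genes have several promoters there. Counted by gene, 8 of the 21 genes of the NF-kB list and 433 of 5812 tested genes held a match.

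Of 27 genes of the TLR4 pathway and its negative regulators 13 were higher and 4 lower (median 0.32, and -0.01 with no further scaling). Tlr4 gave -0.15 ± 0.14 (adjusted p = 0.388), while its partner Ly96, which encodes MD-2, went from 8.79, 8.87 and 8.65 to 9.76, 9.74 and 9.75 (0.98 ± 0.07). Tlr1 rose by 2.09 ± 0.18, and the MD-1 gene Ly86, a partner of the TLR4 homologue RP105, fell by 1.02 ± 0.13. Among STAT and SOCS genes 14 of 22 were higher and 2 lower (median 0.49). Stat4 rose by 2.65 ± 0.16, Stat2, a part of ISGF3, by 2.25 ± 0.17, Stat5a by 1.57 ± 0.09, and the feedback inhibitors Socs1 by 2.02 ± 0.16 and Socs3 by 1.56 ± 0.10. Lower were Socs6 (-1.14 ± 0.15) and the phosphatase Ptpn2 (-0.75 ± 0.09).

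For MHC class I processing, which serves CD8 T cells, 14 of 18 tested genes were higher and 2 lower (median 0.74). The peptide transporter Tap1 went from 9.07, 8.97 and 8.74 to 11.26, 10.87 and 10.76 (2.04 ± 0.12), the loading factor Tapbp rose by 1.29 ± 0.07, and the immunoproteasome subunits Psmb9 and Psmb8 by 1.25 ± 0.12 and 0.93 ± 0.06. The light chain B2m was near the top of the scale throughout, between 13.66 and 13.91, and did not pass (0.12 ± 0.05, adjusted p = 0.060). B2m was called higher with median centring (0.48, adjusted p = 1.42e-05), with the mean of its probe sets (0.17, 0.0116), without the CD14-deficient arrays (0.17, 0.0284) and without the unstimulated CD14-deficient array (0.17, 0.0207). For class II, which serves CD4 T cells, 1 of 16 was higher and 6 lower; the median of -0.09 became 0.17 with median centring. Peptide exchange factors were among the lower: H2-DMa went from 11.74, 11.80 and 12.08 to 10.06, 10.74 and 10.61 (-1.40 ± 0.12), and H2-DMb2 fell by 1.38 ± 0.12. H2-Oa, a brake on that exchange, changed by -0.76 ± 0.17. The class II chain H2-Ab1 went from 12.92, 13.13 and 13.18 to 12.28, 12.82 and 12.64 (-0.50 ± 0.14, adjusted p = 0.006), a call lost without the wild type arrays (adjusted p = 0.1), with median centring (-0.30, 0.114) and with no condition block (0.0704). The transactivator Ciita (0.18 ± 0.16) and the invariant chain Cd74 (-0.07 ± 0.05) did not pass, whereas Rfx5, which binds class II promoters, rose by 0.89 ± 0.12. Cd74 passed in opposite directions with median centring (0.25, adjusted p = 0.0293) and with no further scaling (-0.17, 0.0373).

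Uptake receptors changed in both directions, 9 of 29 higher and 14 lower (median -0.06, and 0.15 with median centring). The C-type lectin Clec4e, or Mincle, a sensor of mycobacterial glycolipid, went from 9.30, 9.16 and 9.45 to 13.56, 13.23 and 13.59 (4.16 ± 0.05, adjusted p = 3.15e-17), and its partner Clec4d rose by 1.41 ± 0.09. The scavenger receptor Marco rose by 3.17 ± 0.28 from 5.53, 5.48 and 7.43. Against these, the mannose receptor Mrc1 went from 11.58, 11.57 and 11.67 to 7.52, 8.13 and 8.00, and Clec10a from 10.55, 10.41 and 10.82 to 6.15, 6.36 and 6.97. The fatty acid transporter Cd36 fell by 0.61 ± 0.10, and Msr1 did not pass (0.20 ± 0.13), though it did with median centring (0.43, adjusted p = 0.0239) and without the wild type array at 24 h (0.36, 0.0214).

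Adhesion genes changed both ways: 11 of 28 integrin and adhesion genes were higher and 14 lower (median -0.17, and 0.07 with median centring). Cdh1, the E-cadherin that ties dendritic cells together, went from 9.37, 9.78 and 11.14 to 6.32, 6.73 and 7.63 (-3.21 ± 0.31), with the CD14-deficient array highest in each group. Itgax fell by 0.70 ± 0.12 and the shared β2 chain Itgb2 fell by 0.35 ± 0.06, a call lost with median centring (-0.16, adjusted p = 0.22), while the fibronectin receptor chain Itga5 rose by 1.75 ± 0.11 and Alcam by 0.78 ± 0.08. Of 38 actin and migration genes, 7 were higher (18.4%) and 11 lower (28.9%), under and near the shares among all genes (median -0.02, and 0.21 with median centring). Fscn1, the actin bundler of mature dendritic cell processes, rose by 0.98 ± 0.12 from an already bright 12.74, 12.87 and 12.64, and its 3 dimmer probe sets gave 1.90 to 2.81, and the mean of all gave 1.98. Marcksl1 rose by 1.65 ± 0.11 and the signalling adaptor Samsn1 by 1.22 ± 0.07, while the actin-severing Gsn fell by 1.23 ± 0.09 and the Rac activator Dock2 by 0.85 ± 0.09. Among matrix proteases and inhibitors 11 of 22 were higher and 7 lower. The membrane protease Mmp14 went from 8.55, 8.51 and 7.62 to 10.96, 11.68 and 10.69 (2.88 ± 0.11), the cystatin Cst7 rose by 3.69 ± 0.22 and Serpinb2, or PAI-2, by 3.34 ± 0.14. Fibronectin, Fn1, fell by 3.05 ± 0.23 and Mmp19 by 2.99 ± 0.14.

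Of 50 lineage and maturation transcription factors 19 were lower (38.0%) and 13 higher (26.0%, near the share among all genes), with a median of -0.13. The immediate-early genes Fosb and Fos (-1.66 ± 0.15) and Klf4 were among the lower, while Batf2 (1.88 ± 0.16), Batf (1.11 ± 0.14), Batf3 (0.84 ± 0.15) and Id2 (0.50 ± 0.06) were higher. The myeloid master factor Spi1 gave -0.15 ± 0.12 and did not pass, but was called lower without the EGTA arrays (-0.35, adjusted p = 0.033) and without the unstimulated EGTA array (-0.31, 0.0235). Zbtb46, a factor of classical dendritic cells, gave -0.12 ± 0.17, but 0.35 (adjusted p = 0.0093, past the threshold) when its probe sets were averaged and -0.45 (0.0367) with no further scaling.

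Of 32 survival and death genes 17 were higher and 4 lower (median 0.33). The caspase-8 inhibitor Cflar went from 8.53, 8.47 and 8.27 to 11.06, 10.72 and 10.25 (2.25 ± 0.09). The inflammatory caspases Casp4 and Casp1 rose by 2.28 ± 0.12 and 1.91 ± 0.10, and Gadd45b by 1.50 ± 0.09. The anti-apoptotic Bcl2l1 (-0.20 ± 0.14, but -0.48 with an adjusted p of 0.0299 with no further scaling) and the pro-apoptotic Bcl2l11 (-0.03 ± 0.14), which encodes BIM, did not pass; Bcl2 was too dim to test, at 6.79, 6.86 and 6.83 without LPS and 6.01, 6.04 and 5.80 with it.

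Division genes fell, and the mitosis list had the largest share of lower members among the 36 functional lists. Of 42 mitosis and cytokinesis genes 39 were lower and 1 higher, with a median of -2.01, and 38 were at least 2-fold lower; of 40 replication genes 34 were lower and 0 higher in the limma fit, with 1 higher at an unadjusted p under 0.05 (median -1.11). Top2a, the topoisomerase of dividing cells, went from 9.92, 10.11 and 10.71 to 7.49, 7.51 and 8.05 (-2.56 ± 0.14, adjusted p = 1.21e-09). The mitotic cyclin Ccnb2 went from 8.82, 8.73 and 10.15 to 5.85, 5.72 and 6.42 (-3.23 ± 0.13). The unstimulated CD14-deficient array was the highest for these genes, so their starting level differed by condition. Ube2c, which serves the anaphase-promoting complex, fell by 3.31 ± 0.12, Stmn1 by 2.77 ± 0.09, the ribonucleotide reductase subunit Rrm2 by 2.61 ± 0.14, Mki67, which encodes Ki-67, by 1.68 ± 0.25 and Pcna by 0.94 ± 0.07. The exception was the securin gene Pttg1, which rose by 0.92 ± 0.14.

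The promoter of Ccnb2 is shown with its CCAAT letters in capitals, since it holds 3 of them (87, 54 and 21 bases before the start), more than any other promoter printed here. It lies at chr9:70421505-70421804 on the minus strand.
Ccnb2: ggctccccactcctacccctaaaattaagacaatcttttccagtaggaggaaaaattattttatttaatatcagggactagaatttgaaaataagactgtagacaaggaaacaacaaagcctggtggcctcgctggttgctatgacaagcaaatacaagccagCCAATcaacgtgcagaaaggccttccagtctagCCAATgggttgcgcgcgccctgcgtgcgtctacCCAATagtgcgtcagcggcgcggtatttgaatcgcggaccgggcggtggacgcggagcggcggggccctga
On both strands the letters CCAAT were in 75.6% of 41 promoters of 38 mitosis genes, 42.4% of promoters of genes at least 2-fold lower, 32.6% of those at least 2-fold higher, 36.7% of tested genes and 37.4% of all promoters of the table.

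**Figure D3:**
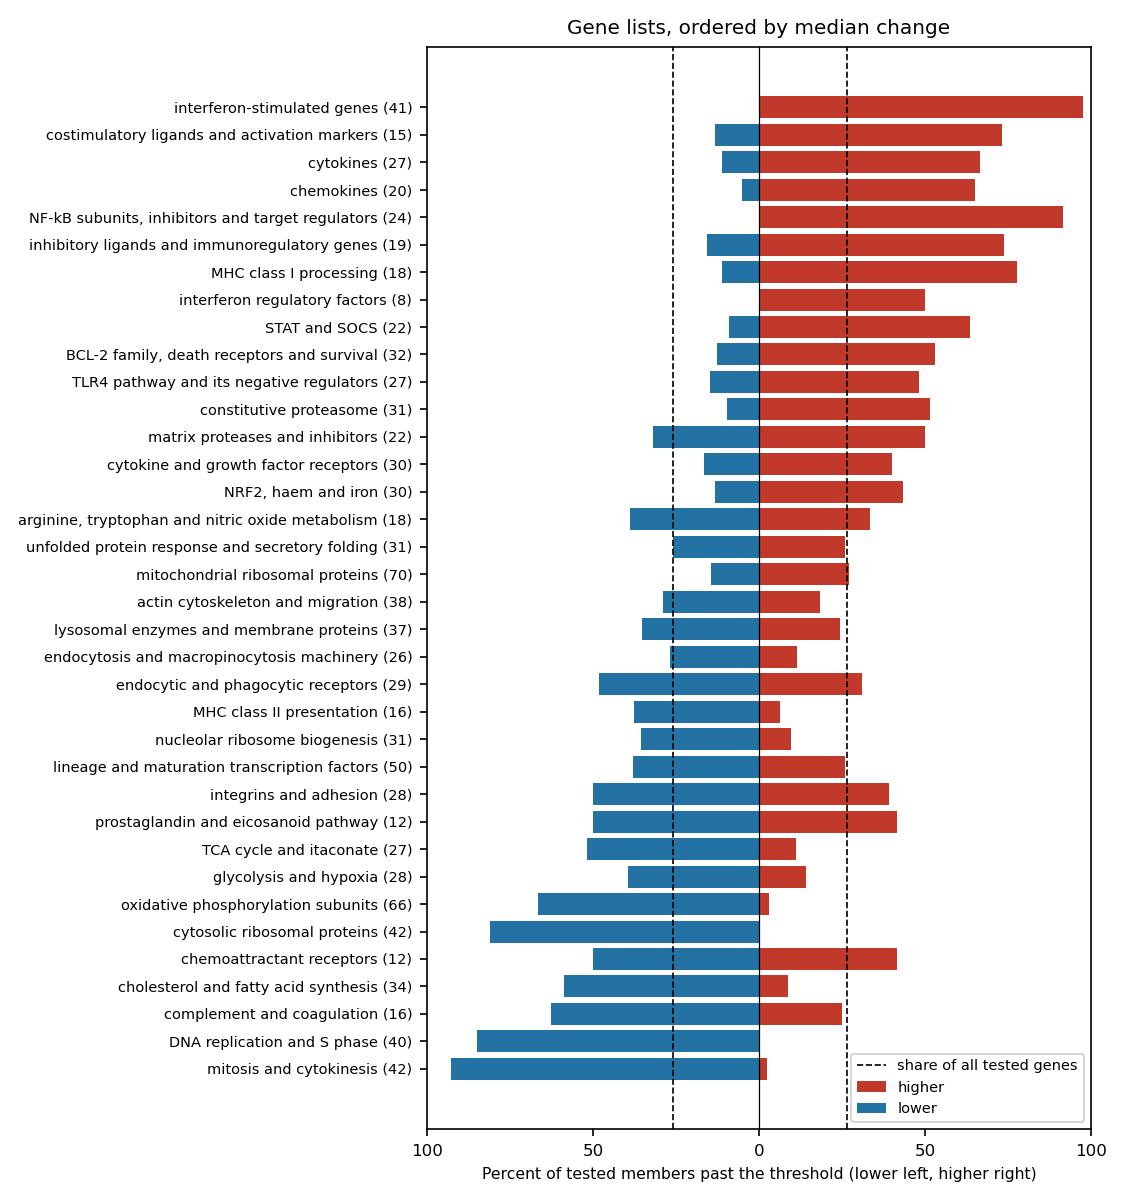
Percent of the tested members of each gene list that were higher (red, to the right) or lower (blue, to the left) after 24 h of LPS, with the number of tested members in brackets; dashed lines mark the share among all tested genes. Interferon-stimulated genes (40 of 41 higher) and mitosis genes (39 of 42 lower) stand at the ends.

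Among metabolic genes, the itaconate enzyme rose and most sterol and fatty acid genes fell. Acod1, which makes itaconate from a citric acid cycle intermediate, went from 8.39, 7.75 and 6.76 to 13.23, 13.24 and 13.19 (5.59 ± 0.23, adjusted p = 4.32e-11). The 3 conditions thus started apart and ended close together, near the top of the scale. Of 27 genes of the citric acid cycle and itaconate 3 were higher and 14 lower (median -0.24). The list also holds Idh1, the cytosolic isocitrate dehydrogenase rather than that of the cycle, which fell by 1.79 ± 0.24. Fh1, the fumarase, fell by 0.95 ± 0.11. Of 34 cholesterol and fatty acid genes 20 were lower and 3 higher (median -0.62). The desaturase Scd1 went from 11.06, 11.17 and 10.83 to 7.75, 8.01 and 8.17 (-3.04 ± 0.11), Scd2 fell by 1.99 ± 0.19 and the sterol synthesis enzyme Hmgcs1 by 1.21 ± 0.21, while Ch25h, which makes the antiviral 25-hydroxycholesterol, rose by 3.00 ± 0.18.

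Of 28 glycolysis and hypoxia genes 11 were lower and 4 higher (median -0.26). Aldoc fell by 2.14 ± 0.08, Pdk1, a kinase that inhibits pyruvate dehydrogenase, by 2.03 ± 0.19 and the lactate transporter Slc16a1 by 1.51 ± 0.16. The regulator Pfkfb3 rose by 1.50 ± 0.18 and hexokinase Hk2 by 0.64 ± 0.10. Slc2a1, the glucose transporter GLUT1, did not pass (0.04 ± 0.19): it was higher after LPS in wild type cells (11.43 to 12.23) and lower with EGTA (11.29 to 10.84) and without CD14 (11.47 to 11.25). Oxidative phosphorylation subunits were lower for 44 of 66 and higher for 2 (median -0.27), and cytosolic ribosomal proteins were lower for 34 of 42 and higher for 0 in the limma fit, also 0 at an unadjusted p under 0.05 (median -0.29). With median centring these counts became 15 lower and 3 higher with a median of -0.04, and 8 lower and 2 higher with -0.05, and with the 6 arrays fitted alone, 29 and 0, and 27 and 0. The largest falls of the first group were those of Ndufv3 (-0.92 ± 0.09) and Ndufb10 (-0.86 ± 0.09), and Rps6 fell by 0.69 ± 0.09.

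Arginine and eicosanoid enzymes changed both ways. Nos2, the inducible nitric oxide synthase, was at the dim end without LPS (4.17, 4.18 and 4.14) and reached 9.07 in wild type cells but 5.50 with EGTA and 5.82 without CD14 (2.63 ± 0.56, adjusted p = 0.001, and 1.50 with an adjusted p of 0.0486 without the wild type arrays; 4.90 with 1 in place of 16 added before log2, and 1.44 with 64). Its arginine supplier Slc7a2 rose by 2.18 ± 0.27, again most in wild type cells (3.19, 1.06 and 2.29), and Gch1, which makes the cofactor of nitric oxide synthase, by 1.54 ± 0.14. Arg1 fell as given above and Arg2 rose by 1.16 ± 0.14. Ptgs2, the inducible cyclooxygenase, went from 7.12, 6.74 and 6.74 to 13.20, 11.96 and 11.81 (5.46 ± 0.18), and Ptges, the prostaglandin E synthase, from 6.11, 5.99 and 6.18 to 10.33, 8.00 and 8.89 (2.98 ± 0.35). The thromboxane synthase Tbxas1 fell by 2.52 ± 0.15, the leukotriene enzyme Lta4h by 1.71 ± 0.09 and the prostacyclin synthase Ptgis as above, while the prostaglandin E receptor Ptger4 rose by 1.30 ± 0.09. Over the eicosanoid list 5 of 12 were higher and 6 lower.

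Of 30 genes of the NRF2 programme, haem and iron, 13 were higher and 4 lower (median 0.20, and -0.02 with no further scaling). Mitochondrial superoxide dismutase Sod2 went from 10.81, 10.69 and 10.27 to 13.31, 13.25 and 13.21 (2.66 ± 0.08), the cystine transporter Slc7a11 rose by 2.49 ± 0.14 and the iron transporter Slc11a2 by 1.91 ± 0.08. Hmox1 rose by 1.10 ± 0.25, with 12.65 in wild type cells against 11.32 and 11.51; without the wild type array at 24 h the change was 0.73. The repressor Bach1 fell by 1.80 ± 0.13. The iron exporter Slc40a1 had no common direction: it went from 8.90 to 7.41 in wild type cells and from 8.20 to 6.60 without CD14, but from 8.93 to 9.81 with EGTA (-0.74 ± 0.40, adjusted p = 0.138). Without the EGTA arrays the change was -1.54 (adjusted p = 2.27e-05), and without the EGTA array at 24 h it was -1.44 (5.25e-04), and with no further scaling -1.03 (0.0353). It was -0.36 without the wild type arrays (0.642), -0.30 without the CD14-deficient arrays (0.65), -0.46 without the wild type array at 24 h (0.428) and -0.31 without the CD14-deficient array at 24 h (0.561).

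Complement and coagulation genes were mostly lower, 10 of 16 against 4 higher (median -0.92), around the strong rise of Cfb. The coagulation factor F13a1 fell by 3.24 ± 0.15, F5 by 1.56 ± 0.14 and properdin, Cfp, by 1.19 ± 0.12. C1qa, a chain of the C1q recognition complex and also a macrophage marker, went from 11.96, 12.02 and 12.05 to 9.90, 11.03 and 8.24 (-2.29 ± 0.40), and C1qb changed alike (-2.12 ± 0.29). The 3 conditions started nearly equal for C1qa and ended far apart. The macrophage markers as a list gave 4 of 12 higher and 6 lower, with Adgre1, which encodes F4/80, higher (0.89 ± 0.09).

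Most granulocyte and monocyte markers were lower after LPS. Of 15 tested granulocyte markers 13 were lower and 2 higher (median -1.74); the higher ones were Lcn2 and Csf3r, and the groups did not overlap for 10 of the 13. Their summed linear level was 39901 to 43695 in unstimulated cells and 16042 to 23000 after LPS. Ngp, a neutrophil granule protein, went from 12.22, 12.24 and 12.19 to 8.74, 8.42 and 9.75 (-3.24 ± 0.20), and the neutrophil elastase gene Elane fell by 1.74 ± 0.20. Of 6 tested monocyte markers 5 were lower and Ace, looked up after its value was seen, did not pass (0.10 ± 0.17); among the lower, 4 of them without overlap, were Ccr2, Fn1 and F13a1 named above. Their summed level was 11111 to 14264 before and 3558 to 7597 after. The part of these cells in the falls of Ltf, Ccr2, Fn1 and F13a1 and of the division genes was not tested. The siderophore-binding Lcn2, a granulocyte marker that macrophages also make, rose by 1.77 ± 0.16, and Hdc, the histamine-making enzyme on the mast cell list, went from 5.78, 4.90 and 5.51 to 11.18, 10.84 and 10.31 (5.38 ± 0.25). The mast cell genes Cpa3 (-0.16 ± 0.13, but -0.53 with an adjusted p of 0.00644 with no further scaling) and Kit (0.25 ± 0.12, but 0.37 and 0.0232 without the wild type array at 24 h) did not pass, Mcpt8 fell by 1.10 ± 0.17 and Fcer1a was too dim to test.

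By condition, 537, 624 and 512 tested genes were at least 2-fold higher and 595, 544 and 490 at least 2-fold lower in the pairs of wild type, EGTA and CD14-deficient arrays respectively. These counts come from 1 pair of arrays each and no difference between conditions was tested. Genes named here for their spread were picked after their values were seen. The rise of Tm4sf1 was 7.26, 3.01 and 6.78, that of Nos2 4.90, 1.32 and 1.68 and that of Timp1, an inhibitor of matrix proteases, 2.82, 0.39 and 2.06. The Timp1 call was lost with no condition block (1.75, adjusted p = 0.0734). Those of Il1a (5.67, 5.64 and 5.55), Cd40 (4.07, 4.26 and 4.02) and Clec4e (4.26, 4.08 and 4.14) were nearly equal, with Il1a and Clec4e ending near the top of the scale. Csf3r, the G-CSF receptor (0.50, 3.09 and 0.49), changed by 1.36 ± 0.37 over the 3 conditions (adjusted p = 0.007). Without the EGTA arrays it changed by 0.50 (adjusted p = 0.114), without the unstimulated EGTA array by 0.76 (0.0383) and without the EGTA array at 24 h by 0.93 (0.0523); with the 6 arrays fitted alone its adjusted p was 0.0743.

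**Figure D4:**
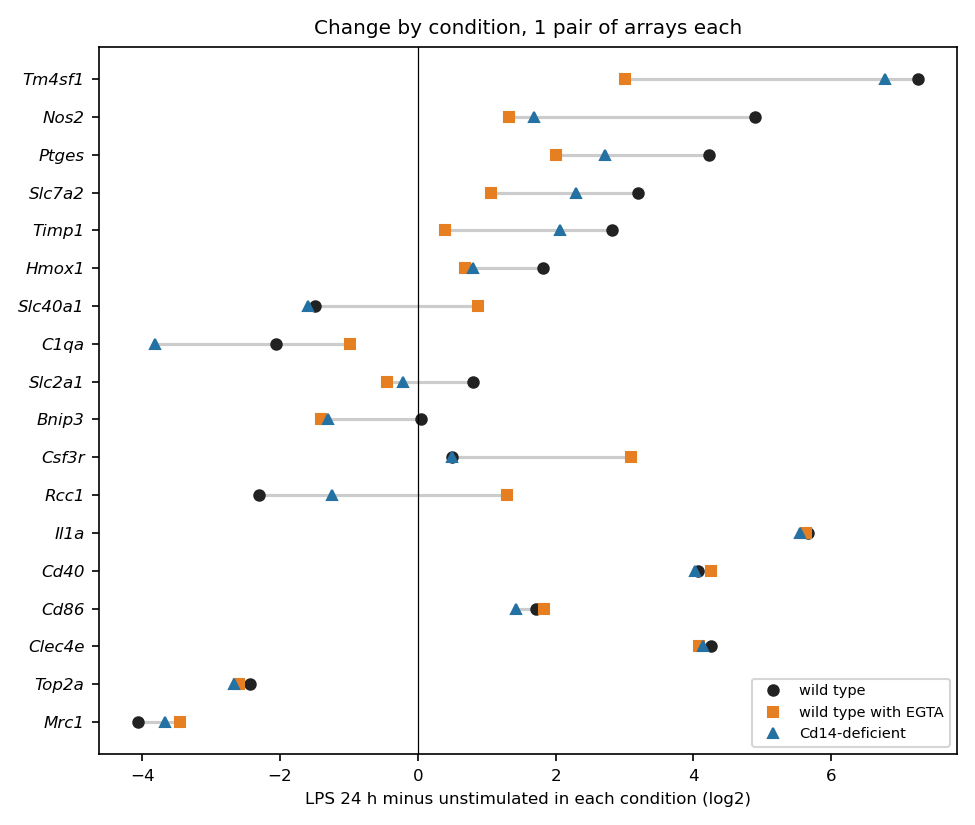
Log2 difference between 24 h of LPS and no LPS within each condition (1 pair of arrays each) for 18 genes chosen after seeing their values. Tm4sf1, Nos2, Ptges, Slc7a2 and Timp1 are least raised with EGTA, whereas the marks of Il1a, Cd40, Clec4e and Top2a lie close together.

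Levels at 24 h were reached along different time courses. The earlier LPS arrays share the same unstimulated arrays and were not matched to them in time since plating, so means ± SD over the 3 conditions are given side by side. Tnf stood at 5.96 ± 0.61 without LPS, and its LPS means ran from 13.08 ± 0.30 at 2 h through 12.40 ± 0.51 at 6 h to 10.54 ± 0.65 at 24 h. Cxcl10 stood at 6.27 ± 0.07, reached 13.42 ± 0.30 at 4 h and was at 11.61 ± 0.76 by 24 h. These means were highest at 2 or 4 h and lower at 24 h. Cfb was at 6.29 ± 0.25 without LPS, at 10.69 ± 0.39 after 4 h and at 12.29 ± 0.09 after 24 h. Hdc was at 5.40 ± 0.45 without LPS, at 7.69 ± 0.68 after 2 h and at 10.77 ± 0.44 after 24 h. Acod1 held 13.01 ± 0.11 at 2 h and 13.22 ± 0.02 at 24 h. Mrc1 stood at 11.61 ± 0.05 without LPS, at 9.55 ± 0.13 after 12 h and at 7.88 ± 0.32 after 24 h. Klf4 was at 10.94 ± 0.25 without LPS and already at 7.48 ± 0.43 after 2 h, against 7.22 ± 0.22 after 24 h. Cfb, Hdc and Mrc1 were thus farther from their unstimulated mean at 24 h than at the earlier time given, and Acod1 and Klf4 were near their 24 h mean by 2 h. Arg1 had its lowest mean at 12 h (7.26 ± 1.20) and stood at 8.98 ± 1.03 at 24 h.

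**Figure D5:**
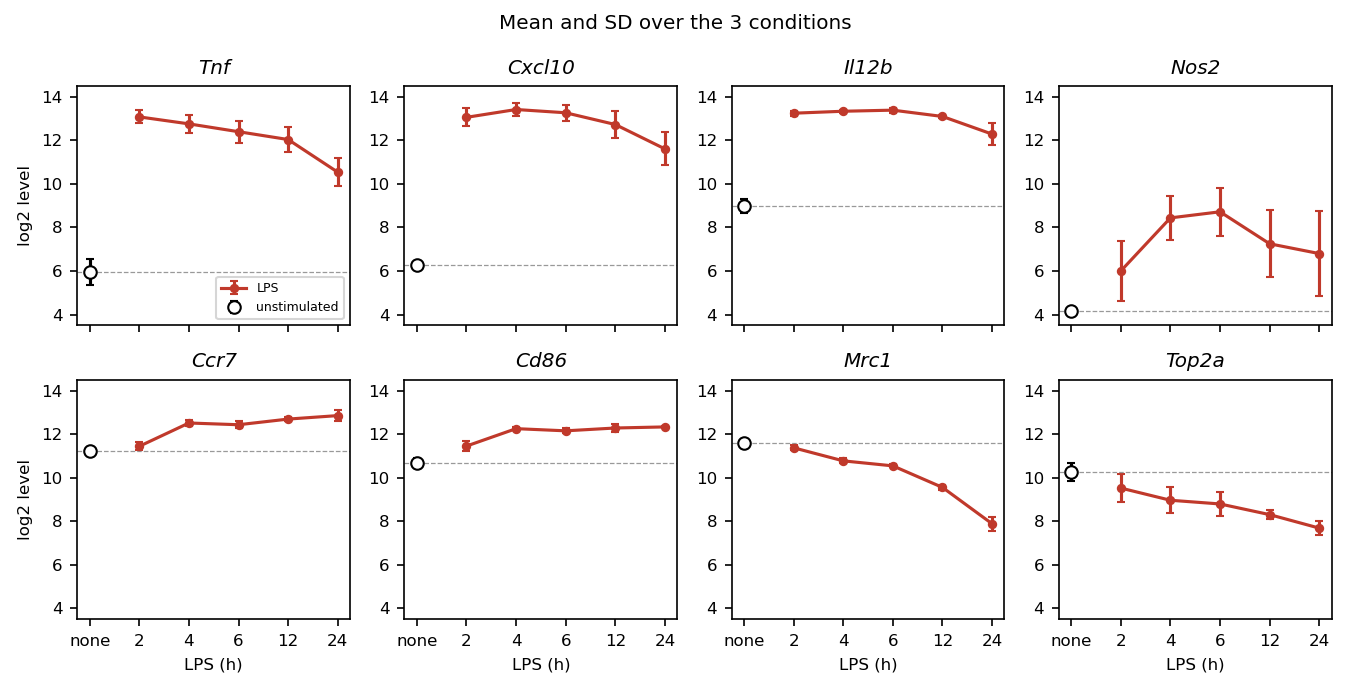
Mean log2 level and SD over the 3 conditions without LPS (open symbol, dashed line) and at 2, 4, 6, 12 and 24 h of LPS for 8 genes; the time axis is by category, not to scale. Tnf and Cxcl10 are below their early peak at 24 h, Ccr7 and Cd86 are close to their 12 h means, and Mrc1 and Top2a are at their lowest mean.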

How the data were processed

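Gene expression was measured on 18 arrays of 22690 probe sets, of which 6 carry the comparison. The deposited values are linear intensity values that the authors made with MAS5, per the submitters' processing notes; the sources used here name neither its version nor the target to which it scaled. Probe sets were named through the array's annotation table: 20393 had 1 gene, 691 several and 1606 none. A gene was read from its brightest 1-gene probe set (12394 genes). All 18 arrays were quantile-normalised, 16 was added and log2 taken. Genes above their array's median on at least 2 arrays (7056) were fitted in R 4.3.3 with limma 3.58.1 (state plus condition, eBayes with trend, 10 residual degrees of freedom), so the other times add only to the estimate of spread. Of these steps only the model fit was tested on simulated data, which had independent errors and no differences between conditions. Depth has no meaning for arrays; their number limits the precision.

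Members and the 47 gene lists were chosen with earlier results of these data known. Named genes are the 12 largest rises and falls, key genes of the lists, in each list the 4 smallest p and up to 3 calls against its majority, and genes at least 2-fold changed with differing sign between conditions; the others are said to be chosen after their values were seen. Xcr1, a dim marker, is also outside that rule. Lists are described by counts and medians with no test. Promoters are RefSeq's, for 5812 of the tested genes. Alternatives covered scaling, added constant, filter, probe sets, design, trend and each condition or array left out.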

Additional observations from a re-analysis of the deposited data

Results flagged for a closer look

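Rcc1, the chromatin-bound exchange factor of Ran, moved in opposite directions between conditions by at least 2-fold each way, the only tested gene to do so. It went from 6.87 to 4.56 in wild type cells (-2.30), from 7.33 to 6.08 without CD14 (-1.25) and from 4.88 to 6.17 with EGTA (1.29), on 1 pair of arrays each. The difference between conditions was not tested. The change over the 3 conditions was -0.75 ± 0.45 (adjusted p = 0.171), -1.78 without the EGTA arrays (adjusted p = 0.00171), -1.47 without the unstimulated EGTA array (0.00225), -1.26 without the EGTA array at 24 h (0.0299) and -1.17 with no further scaling (0.0236). It was 0.02 without the wild type arrays (0.98), -0.27 without the unstimulated wild type array (0.657) and -0.32 without the wild type array at 24 h (0.608). With 64 added before log2, which weighs dim levels less, it was -0.47 (0.116).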

How the results depend on the processing

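Counts of calls stayed within 1.5 times of those reported in all alternatives except the scalings. With no further scaling 729 genes were higher, 2792 lower and 756 at least 2-fold lower, and with median centring 1174 were lower. Leaving out a condition or an array gave 1358 to 1797 genes higher, 1286 to 1785 lower, 467 to 521 at least 2-fold higher and 445 to 501 at least 2-fold lower. The condition block is the pairing of this design: with the 18 arrays and no block 1543 genes were higher and 1476 lower, and with the 6 arrays alone and the block 1274 and 1352. No paired analysis by replicate number was possible because each condition and time has 1 array. Some small changes turned sign. With median centring Cd74 became 0.25, Sdha 0.02, Ccl6 0.03 and Pdia3 0.05. With no further scaling Hif1a became -0.01, Dld -0.06, Cox7a2 -0.02, Ndufs4 -0.04 and Cd68 -0.02. With the mean of a gene's probe sets Ctsb became -0.32, Zbtb46 0.35 and Ndufs4 0.00. The cause was not tested. Of the 297 named genes with a test, 266 to 297 kept direction and side of the threshold under each alternative.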

Other observations

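The counts here stand against 26.4% higher and 25.7% lower among all tested genes. Of 31 subunits of the constitutive proteasome 16 were higher and 3 lower (median 0.25), but 3 and 5 with no further scaling (-0.01); the catalytic subunit Psmb5 rose by 0.60 ± 0.07. Of 70 mitochondrial ribosomal proteins 19 were higher and 10 lower (median 0.05, and -0.24 with no further scaling). Mrps6 rose by 1.08 ± 0.11 and Mrpl23 fell by 0.69 ± 0.11. Of 31 nucleolar genes 11 were lower and 3 higher, with nucleolin, Ncl, lower (-0.72 ± 0.06) and the RNA polymerase I subunit Polr1c higher by 0.48 ± 0.09, a call lost with no further scaling (0.15, adjusted p = 0.379). The other higher members, Rrs1 and Wdr74, also lost their calls with no further scaling (0.09, 0.666, and 0.14, 0.618).

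Lysosomal genes gave 9 of 37 higher and 13 lower (median -0.04, and 0.19 with median centring). The cholesterol carrier Npc2 rose by 0.59 ± 0.05 and the mannosidase Man2b1 fell by 1.18 ± 0.06, while the protease Ctsd (-0.03 ± 0.05) and Lamp1 (-0.02 ± 0.06) did not pass, though both were called lower with no further scaling (-0.21, adjusted p = 0.0161, and -0.25, 0.0209). Of 26 endocytosis genes 3 were higher and 7 lower, among them the sorting nexins Snx5 (-1.05 ± 0.10) and Snx2 (-0.83 ± 0.09). Of the higher, Rab5a and Rab5b lost their calls with no further scaling (0.01, adjusted p = 0.957, and 0.25, 0.308). Of 31 genes of the unfolded protein response 8 were higher and 8 lower, 25.8% each and so near the share among all genes: Ddit3, which encodes CHOP, rose by 1.36 ± 0.18 and the sensor Atf6 fell by 0.95 ± 0.12, and Xbp1 did not pass (-0.02 ± 0.11).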
